A study of Mus musculus with 18 samples.

Results

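All 12 cortex libraries that carry the duplication were set against the 6 wild-type (WT) libraries, across every gene expressed in the tissue. The 12 libraries comprised 6 labelled Dp16 and 6 labelled Dp16_2xIFNRs, out of 18 in the series, and were taken by their genotype label alone. WT mice were C57BL/6J, and for the other genotypes the labels name no strain. Dp16 mice carry a duplication on chromosome 16, and Dp16_2xIFNRs mice carry the same duplication with the dosage of the interferon receptor genes normalized. No agent was given to any group. Each genotype had 3 male and 3 female libraries, aged 17.1 to 18 weeks, made from polyadenylated RNA of brain cortex. The labels number the samples without saying that each came from a separate animal, so p-values measure the spread between these samples, part of which may be technical.

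Dp16 mice are a widely used model of trisomy 21: the duplicated stretch of mouse chromosome 16 holds many genes whose human counterparts lie on chromosome 21. Genes inside such a duplication are present in an additional copy, while genes elsewhere keep their copy number. Among the duplicated genes are 4 that encode subunits of cytokine receptors, Ifnar1 and Ifnar2 for type I interferon, Ifngr2 for interferon gamma and Il10rb for interleukin 10 and interferon lambda. Pooling both duplication genotypes gives their difference from WT averaged over either receptor dosage. Outside the segment, an effect of the duplication and one of strain background cannot be told apart, as only WT has a named strain.

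Library totals ran from 47554526 to 52006799 counts in WT and from 46346019 to 67281449 counts in the duplication libraries. Mitochondrial transcripts took 4.88% to 6.7% of counts in WT and 5.31% to 7.49% in the duplication libraries. Cortical excitatory neuron markers summed to 6960 to 8640 CPM (counts scaled to library size) in WT and 6880 to 8220 CPM in the duplication libraries; these are defining markers of the labelled tissue. The 14 striatal markers tested summed to 631 to 1710 CPM in WT and 552 to 2050 CPM in the duplication libraries. Ttr, the transthyretin gene of the choroid plexus, stood at 178 CPM in WT replicate 5 and 351 CPM in Dp16 replicate 3, where the next highest library of each genotype had 35 and 15.2 CPM. WT replicate 6 stood lowest of the WT libraries in markers of microglia, border macrophages, meninges and reactive astrocytes. Since it is 1 of only 6 controls, results that rest on it are given with and without it. Values are also given without WT replicates 5 and 6 and Dp16 replicate 3, called the 3 doubted libraries below; their part in the results was otherwise not tested.

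Of 55385 genes in the count table, 18717 passed the filter on low counts. Of these, 269 (1.44%) were called, that is, had a Benjamini-Hochberg adjusted p below 0.05 in edgeR's quasi-likelihood test over all genes tested. They comprised 181 higher genes (0.967%) and 88 lower ones (0.47%). Inside the segment 68 of 115 tested genes were called higher (59.1%) and 0 lower. Outside it 113 of 18602 genes were called higher (0.607%) and 88 lower (0.473%). A limma-trend fit to the deposited RPKM values, in which both the scaling and the test differ from edgeR's, gave an outside split of 162 higher and 70 lower.

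**Figure D1:**
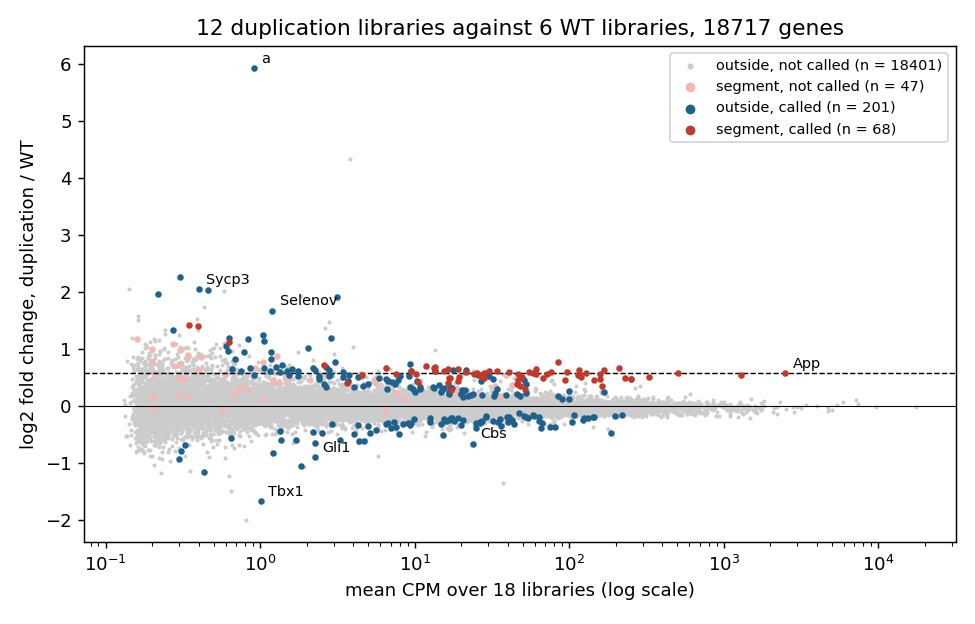
Log2 fold change (both duplication genotypes over WT, from the edgeR fit) against mean CPM over 18 libraries on a log scale, 1 point per tested gene, with the dashed line at 1.5-fold. Most of the 68 called segment genes lie near that line, with the 3 below 1 CPM above it and the 3 called receptor genes under it, and the 201 called genes outside the segment spread over both directions, with gene a far above the rest.

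Genes of the segment rose together. The duplicated stretch runs from Lipi to Zbtb21 (chr16:75540514-97962622 on GRCm38), where 384 genes of the table were placed and 115 passed the filter. Leaving aside the 4 receptor genes, 108 of 111 tested genes were above WT, with a median fold of 1.47 and quartiles of 1.38 and 1.55. The median over all tested genes was 0.999. Per library, the median log2 level of the 111 genes relative to the WT mean ran from 0.53 to 0.58 in the 12 duplication libraries (0.55 ± 0.018, SD) and from -0.01 to 0.01 in the 6 WT libraries. No duplication library came near the WT range. In 53 of the 111 genes every duplication library lay above every WT library, against 82 of all 18717 tested genes (0.438%).

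The share of segment genes called followed their level. All 27 genes at or above 50 CPM were called, and 29 of 35 between 10 and 50 CPM. Between 1 and 10 CPM 6 of 22 were called, and below 1 CPM 3 of 27, although the median fold of the latter was 1.59. The 3 were Ripk4, a receptor-interacting kinase gene, the interferon-inducible GTPase gene Mx1 and A730009L09Rik, named here after their values were seen. Their folds were 2.19, 2.66 and 2.68, and the call of Mx1 (adjusted p = 0.0361) ended in 12 of 18 fits that each left out 1 library (up to adjusted p = 0.0996, without WT replicate 3). Of the 87 protein-coding genes 64 were called, and of the 24 others 1.

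**Figure D2:**
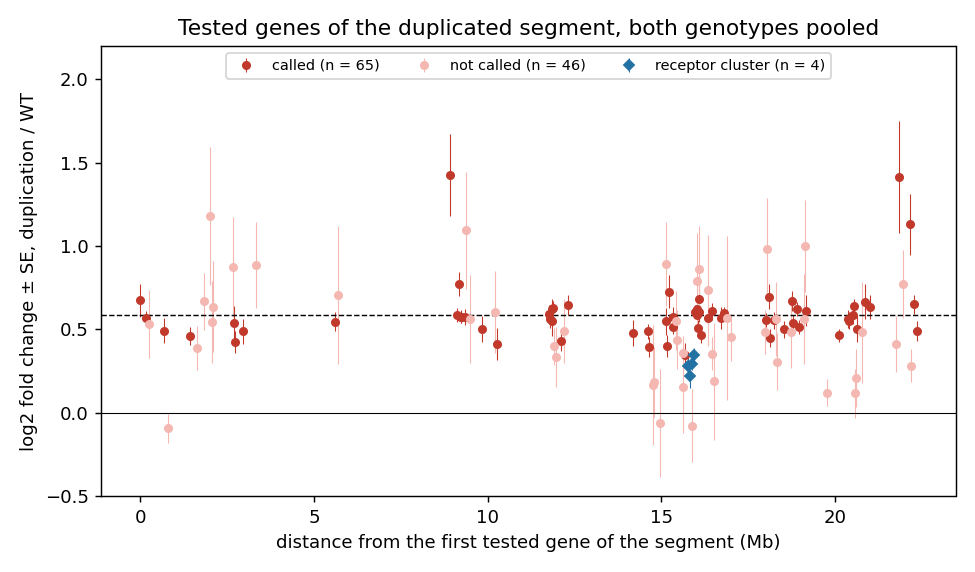
Log2 fold change ± SE of the 115 tested segment genes against distance from the first tested gene of the segment in megabases, with the dashed line at 1.5-fold. Most of the 65 called genes outside the receptor cluster sit near the line along the segment, Ripk4, Mx1 and A730009L09Rik lie above it, and the 4 receptor genes (diamonds) lie between 0.22 and 0.35.

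Genes for mitochondria, metabolism and protein quality were the most uniform group of the segment: 22 of 23 tested members were called higher, at a list median of 0.59 (log2 fold change). Cryzl1, a quinone oxidoreductase-like gene with the smallest p of all genes, ran from 38.6 to 44 CPM in WT (median 40.6) and from 58.2 to 64 CPM in the duplication libraries (median 62.1). The groups did not overlap, and the fold was 1.52 (log2 0.60, SE 0.03, adjusted p = 2.92e-10). Gart, an enzyme of purine synthesis, rose from 30.5 ± 0.78 to 45.9 ± 2 CPM (1.5-fold, adjusted p = 1.44e-09). Cct8, a subunit of the cytosolic chaperonin, rose from 124 ± 8.3 to 191 ± 7 CPM (1.55-fold, adjusted p = 1.86e-09). Wrb, whose protein takes part in inserting tail-anchored proteins, rose 1.56-fold, the ATP synthase subunit gene Atp5j 1.49-fold and the Hsp70-family gene Hspa13 1.48-fold. Tmem50b, a transmembrane protein gene of the same stretch, rose 1.52-fold.

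Among genes for signalling and kinases, 12 of 15 were called higher (median 0.54). Rcan1, an inhibitor of calcineurin, ran from 53.1 to 62 CPM in WT and from 79 to 90.4 CPM in the duplication libraries, a 1.52-fold rise (adjusted p = 2.95e-09). Dyrk1a, a dosage-sensitive kinase gene, rose 1.43-fold from 92.4 ± 4.7 to 132 ± 6.8 CPM (adjusted p = 7.75e-08). Vps26c of the retriever complex rose 1.54-fold. Jam2, a junctional adhesion molecule, rose 1.71-fold from 57.7 ± 7.6 to 98.5 ± 8.3 CPM. Its fold was 1.68 in Dp16 and 1.74 in Dp16_2xIFNRs.

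Of the synapse, adhesion and channel genes, 8 of 12 were called higher (median 0.56). App, the amyloid precursor protein gene, was the most abundant of them and ran from 1710 to 2083 CPM in WT and from 2445 to 3049 CPM in the duplication libraries. The ranges did not overlap, and the rise was 1.49-fold (log2 0.57, SE 0.05, adjusted p = 1.49e-07). Grik1, a kainate receptor subunit, rose 1.57-fold, the adhesion molecule gene Ncam2 1.46-fold, and Dscam, a neuronal recognition molecule, 1.55-fold. The list named RNA and chromatin also held genes of other functions. Of its 23 tested genes 15 were called higher (median 0.49). Among these were the chromatin protein gene Hmgn1 (1.5-fold) and the transcription factor genes Gabpa (1.49-fold) and Ets2 (1.38-fold). Pigp (1.59-fold), an enzyme of the glycolipid anchor pathway, was also counted there.

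A few well-expressed genes of the segment stayed well under 1.5-fold. Scaf4, a regulator of transcript ending, rose only 1.32-fold (adjusted p = 0.000414), and Olig1, a transcription factor gene of the oligodendrocyte lineage, 1.27-fold from 137 ± 15 to 175 ± 16 CPM (adjusted p = 0.0127). Its neighbour Olig2 had a fold of 1.28 (adjusted p = 0.0852), as did the inositol transporter gene Slc5a3 (adjusted p = 0.09). Prdm15 (1.22, adjusted p = 0.205), the kinase gene Hunk (1.14, adjusted p = 0.824), the endothelial transcription factor gene Erg (1.09, adjusted p = 0.611) and Gm9843 (0.939, adjusted p = 0.766) were not called. Hunk was also the most variable of them, from 18.6 to 49.6 CPM in WT and from 25.6 to 60.9 CPM in the duplication libraries. For Erg the WT and duplication ranges overlapped almost fully (6.57 to 10 and 6.82 to 10.1 CPM), and for Gm9843 in part (6.16 to 8.64 and 4.97 to 7.1 CPM).

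The 4 receptor genes were the only genes in which the 2 duplication genotypes differed at the threshold (4 of 18717, 0.0214%; 410 genes had an unadjusted p below 0.05). WT libraries held 40 ± 1.6 CPM of Ifngr2, Dp16 libraries 61.9 ± 2.7 CPM and Dp16_2xIFNRs libraries 41.8 ± 3 CPM. The pooled fold of 1.27 (adjusted p = 4.76e-05) is therefore the mean of a fold of 1.55 in Dp16 and one of 1.05 in Dp16_2xIFNRs. Ifnar1 (1.46 and 1.03) and Ifnar2 (1.48 and 0.995) had the same form and were called in the pooled contrast, and Il10rb (1.41 and 0.966) was not (adjusted p = 0.188). With the duplication entered as a single factor, so that the difference between genotypes counts as spread, none of the 3 was called (adjusted p = 0.183, 0.198 and 0.313). Leaving out the 3 doubted libraries also ended the call of Ifnar2 (adjusted p = 0.0782).

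Outside the segment, changes were smaller and went both ways. The 113 genes called higher had a median fold of 1.4 and the 88 called lower one of 0.815. Of the higher genes 15 changed by a factor of 2 or more and 27 by 1.5 to 2, and of the lower genes 3 and 12. In 27 of the 113 and 13 of the 88, no duplication library overlapped any WT library. Over all 18602 genes outside the segment, called or not, 29 (0.156%) had every duplication library above every WT library. In 16 (0.086%) every duplication library was below every WT library. By edgeR the difference between Dp16 and Dp16_2xIFNRs was called in 0 of the 201, with an unadjusted p below 0.05 in 7. As a background for the list counts below, 49.3% of genes outside the segment were above WT, and 40.3% of those at 50 CPM or more. The lists were chosen with earlier results of these data known, so a list share above the background is not a test. Over the autosomes and X, the shares called per chromosome ran from 0.327% on chromosome 19 to 1.7% on chromosome 11. Of 25 mitochondrial genes tested 0 were called. On chromosome 16 outside the segment 3 of 455 genes were called, all lower: Tbx1, Zdhhc8 and Slc15a2, the last named after its values were seen.

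How far these calls depend on single libraries differed between the segment and the rest. Leaving out each of the 18 libraries in turn, 65 of the 68 segment calls held every time, and 72 of the 201 outside it did, 48 higher and 24 lower. The number of outside genes called lower ran from 37 without WT replicate 4 to 142 without WT replicate 6, and that called higher was 72 without WT replicate 2 and 73 without WT replicate 3. It was 97 without WT replicate 6.

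The largest rise among the called genes was that of gene a (nonagouti), chr2:154791402-155051012, which encodes the agouti signalling protein, an antagonist of melanocortin receptors whose alleles set coat colour. The 6 WT libraries held 2, 0, 1, 2, 0 and 1 counts. The 6 Dp16 libraries held 65, 71, 77, 59, 86 and 79 counts and the 6 Dp16_2xIFNRs libraries 83, 60, 60, 103, 57 and 100. Every duplication library thus held 57 counts or more, and every WT library at most 2. The ratio of summed counts, scaled to library totals, was 67.9 (95% interval 31.1 to 186, counting error only; edgeR adjusted p = 2.92e-10). The other 7 melanocortin genes tested included no called gene.

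Selenov, a selenoprotein gene at chr7:28284652-28291186, ran from 0.414 to 0.675 CPM in WT (median 0.431) and from 0.949 to 2.12 CPM in the duplication libraries (median 1.49), with no overlap. It rose 3.2-fold (adjusted p = 2.68e-06), and of 21 selenoprotein genes tested it was the 1 called. Slc5a5, the sodium iodide symporter gene at chr8:70882889-70892757, ran from 18.6 to 21 CPM in WT and from 23.9 to 32.9 CPM in the duplication libraries, a 1.46-fold rise (adjusted p = 6.81e-06). Abca8a, a lipid transporter gene at chr11:110025634-110095978, rose 1.53-fold from 10 ± 1.1 to 15.3 ± 1.5 CPM (adjusted p = 1.73e-05). In all 3 genes the lowest duplication library was above the highest WT library.

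Cbs, the gene of cystathionine beta-synthase at chr17:31608894-31637238, fell. This enzyme directs homocysteine into the transsulfuration pathway, and its human counterpart lies on chromosome 21 while the mouse gene lies outside the duplicated segment. The 6 WT libraries ran from 26.6 to 33.8 CPM (median 32.7) and the duplication libraries from 14.9 to 25 CPM (median 19.9), without overlap. The fold was 0.632 (log2 -0.66, SE 0.08, adjusted p = 2.49e-05), 0.679 in Dp16 and 0.589 in Dp16_2xIFNRs. The 42 tested genes on mouse chromosomes 10 and 17 whose counterparts lie on human chromosome 21 had a list median of 0.02, with 24 above WT and Cbs the 1 called.

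Tbx1, a T-box transcription factor gene at chr16:18580979-18590671, had the largest fall among the called genes. Its level ran from 1.57 to 2.29 CPM in WT and from 0.212 to 0.929 CPM in the duplication libraries. The groups did not overlap, and the fold was 0.314 (log2 -1.67, SE 0.24, adjusted p = 0.000325). Zdhhc8, a palmitoyltransferase gene nearby at chr16:18220753-18235136, had a fold of 0.875 (adjusted p = 0.0232). That call ended on leaving out WT replicate 1 (adjusted p = 0.0662), 2 (0.092) or 4 (0.0601).

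**Figure D3:**
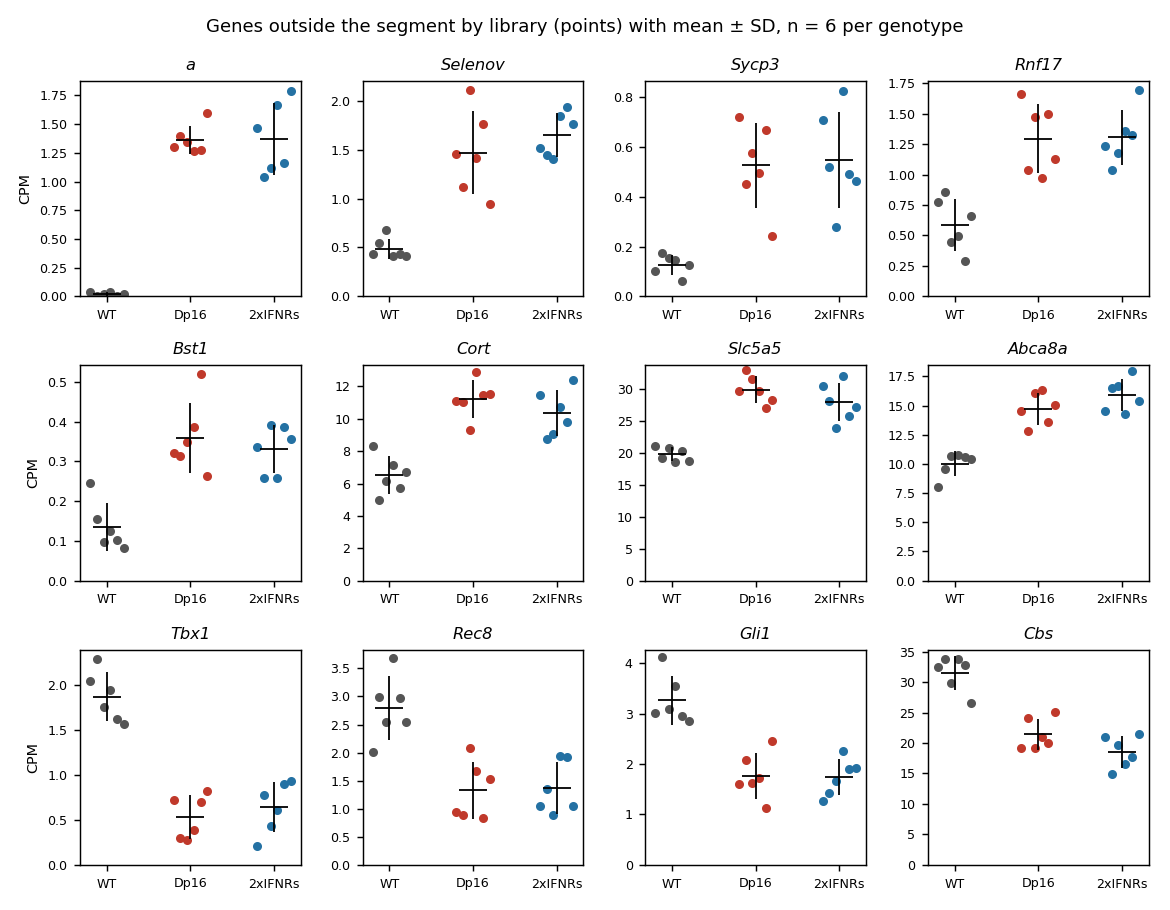
CPM of 12 genes outside the segment in each library (points, n = 6 per genotype; 2xIFNRs stands for Dp16_2xIFNRs) with mean ± SD, each panel with its own axis from 0. In every panel but that of Rec8, whose highest duplication library (2.08 CPM) passes the lowest WT library (2 CPM), no duplication library reaches the WT range.

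The hedgehog pathway is a signalling route through which astrocytes in adult cortex respond to neurons. Of its 18 tested genes 6 were above WT and 12 below, at a list median of -0.05. At the threshold 2 were called lower and 0 higher, against 0.473% of genes outside the segment called lower. Both called genes are targets as well as components of the pathway. Gli1, its transcriptional effector at chr10:127329882-127341974, ran from 2.86 to 4.12 CPM in WT (median 3.05) and from 1.13 to 2.46 CPM in the duplication libraries (median 1.69). The groups did not overlap (fold 0.536, adjusted p = 0.000153). Ptch1, the receptor, had 72.1 ± 8.2 CPM in WT and 60.2 ± 5.2 CPM in the duplication libraries (fold 0.837, adjusted p = 0.0219). The call of Ptch1 ended on leaving out WT replicate 2, 3, 4 or 5 (adjusted p = 0.0614, 0.053, 0.0759 and 0.0531).

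Several genes of homeostatic astrocytes fell, in a list whose median was near 0 (-0.005; 10 of 21 tested members above WT). Without WT replicate 6 the list had 3 of 21 above WT and a median of -0.078, and without the 3 doubted libraries 5 and -0.06, each with 4 called lower. The 4 called, all lower, were Cbs, Slc13a5, Mfge8 and Fgfr3. Slc13a5, a citrate transporter gene, fell from 19 ± 2.2 to 13.3 ± 1.3 CPM (fold 0.701, adjusted p = 9.08e-05). Mfge8, which encodes a secreted protein that bridges dying cells to phagocytes, ran from 174 to 271 CPM in WT and from 142 to 201 CPM in the duplication libraries (fold 0.72, adjusted p = 0.00209). Fgfr3, a growth factor receptor gene, had a fold of 0.839 (adjusted p = 0.0461), and its call ended in 13 of 18 leave-one-out fits (up to adjusted p = 0.139, without WT replicate 4). The summed level of the 21 markers was 9700 to 14200 CPM in WT and 10700 to 13900 CPM in the duplication libraries, so the ranges of the whole list overlapped; the WT low was that of replicate 6.

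Genes of reactive astrocytes leaned the other way: 17 of 19 exceeded WT, 2 of them at the threshold, and the list median was 0.24. Leaving out WT replicate 6 gave 15 above WT, 1 called and 0.18, and without the 3 doubted libraries 17, 1 and 0.14. Lcn2, the lipocalin-2 gene, ran from 0.0771 to 0.433 CPM in WT and from 0.182 to 1.38 CPM in the duplication libraries (fold 4.09, adjusted p = 0.0192). Serpina3n, a protease inhibitor gene, had 7.95 ± 0.95 CPM in WT and 9.95 ± 1.3 CPM in the duplication libraries (fold 1.25, adjusted p = 0.0436). The call of Lcn2 ended on leaving out WT replicate 1, 2, 3 or 4 (adjusted p = 0.0563, 0.0614, 0.062 and 0.0555), and that of Serpina3n in 11 of 18 such fits (up to 0.131, without WT replicate 2). In bulk tissue, more cells of a type and more RNA per cell cannot be told apart.

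Interferon-stimulated genes were mostly above WT, with few large enough changes to be called. Type I interferon signals through Ifnar1 and Ifnar2 and switches on antiviral genes from interferon response elements in their promoters. Of 49 tested members 45 were above WT and 4 were called higher, among them Lgals3bp, Ifi27 and Bst2. Of all genes outside the segment 49.3% were above WT and 0.607% were called higher. The list median was 0.22 on the log2 scale, against -0.001 over all tested genes. Without WT replicate 6 the list had 42 above WT, 4 called and a median of 0.2, and without the 3 doubted libraries it had 41, 2 and 0.17. The summed level of the list was 486 to 568 CPM in WT and 559 to 616 CPM in the duplication libraries.

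Lgals3bp, a secreted glycoprotein gene, ran from 9.94 to 21.5 CPM in WT (median 15.8) and from 20.5 to 28.5 CPM in the duplication libraries (median 24.9). It rose 1.55-fold (adjusted p = 0.000812), by 1.6 in Dp16 and 1.5 in Dp16_2xIFNRs. Ifi27, a mitochondrial interferon-induced gene, rose 1.27-fold from 14.5 ± 1.2 to 18.3 ± 1.6 CPM (adjusted p = 0.0032). Bst2, which encodes the viral tether tetherin, had a fold of 1.43 (adjusted p = 0.0201). The call of Bst2 ended without WT replicate 1 or 3 (adjusted p = 0.0557 and 0.0633).

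MHC class I genes, which present peptides from inside the cell, were above WT in 18 of 23 cases (median 0.13). Of them 3 were called higher (13%), against 0.607% of genes outside the segment. Without WT replicate 6 the list had 15 above WT, 2 called and a median of 0.08, and without the 3 doubted libraries 14, 1 and 0.077. The summed level of the list overlapped, at 1250 to 1370 CPM in WT and 1250 to 1450 CPM in the duplication libraries. H2-D1 ran from 36.2 to 55.2 CPM in WT and from 52.4 to 65.1 CPM in the duplication libraries, a rise of 1.31-fold (adjusted p = 0.0014). H2-K1 rose 1.38-fold from 25.7 ± 5.5 to 35.3 ± 2.7 CPM (adjusted p = 0.00721), and B2m, the shared light chain, had a fold of 1.21 (adjusted p = 0.0258). The call of H2-K1 ended with the 3 doubted libraries left out (adjusted p = 0.0514), and that of B2m without WT replicate 2, 3, 5 or 6 (0.071, 0.0599, 0.0688 and 0.0524). H2-D1 and H2-K1 have near-identical relatives, between which reads can be divided.

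The promoters of B2m and Bst2, called genes of these lists with a match to the interferon response element, are shown. Whether the match acts in either gene was not tested. Lgals3bp, Ifi27, H2-D1 and H2-K1 were not among the genes found with a match. The element was searched as 2 copies of GAAA separated by any 2 bases, on both strands, in RefSeq windows (GRCm38.p6) from 250 bases before to 50 after each gene start. It was found in 3.44% of all 32851 windows. The 200 bases just before the start follow, 5′ to 3′ on the strand of the gene with the element in capitals, for B2m at chr2:122147487-122147686 (plus strand) and Bst2 at chr8:71537473-71537672 (minus strand).
B2m: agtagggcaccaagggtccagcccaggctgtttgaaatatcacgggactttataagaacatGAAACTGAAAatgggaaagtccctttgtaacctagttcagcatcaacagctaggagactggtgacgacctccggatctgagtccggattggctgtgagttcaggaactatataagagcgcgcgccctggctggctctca
Bst2: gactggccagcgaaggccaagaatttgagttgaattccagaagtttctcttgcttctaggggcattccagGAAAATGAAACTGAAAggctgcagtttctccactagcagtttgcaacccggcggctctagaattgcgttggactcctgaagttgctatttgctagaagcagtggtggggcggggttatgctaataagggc
In B2m the element begins 139 bases before the start. In Bst2 a pair of overlapping elements begins 130 and 124 bases before it. Of the type I interferon-stimulated list 17 of 38 genes with a window held the element (44.7%), and of the MHC class I list 5 of 20 (25%). Of all genes called higher outside the segment, 4 of 83 with a window held it (4.82%), and of those called lower 4 of 64 (6.25%), against 3.65% of tested genes with a window.

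MHC class II genes, which present peptides taken up from outside, had the highest median of any list outside the segment, 0.58, with 7 of 8 members above WT and none called. By edgeR's quasi-likelihood test H2-Ab1 had 1.47 ± 0.57 CPM in WT and 2.55 ± 0.45 CPM in the duplication libraries (adjusted p = 0.0564). No duplication library was as low as the highest WT library (2 against 1.92 CPM). Cd74, the invariant chain gene, had a fold of 1.57 (adjusted p = 0.0518). DESeq2 called both, at adjusted p = 0.0034 and 0.00228. WT replicate 6 had 0.373 CPM of H2-Ab1, and without it the list median was 0.46, with 1 member called; without the 3 doubted libraries it was 0.38, with none. Of 18 GTPase genes induced by interferon gamma, with Irf1, 15 were above WT (median 0.25) and none was called. The number above WT was 14 without WT replicate 6, with a median of 0.14, and without the 3 doubted libraries 13, with one of 0.13.

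**Figure D4:**
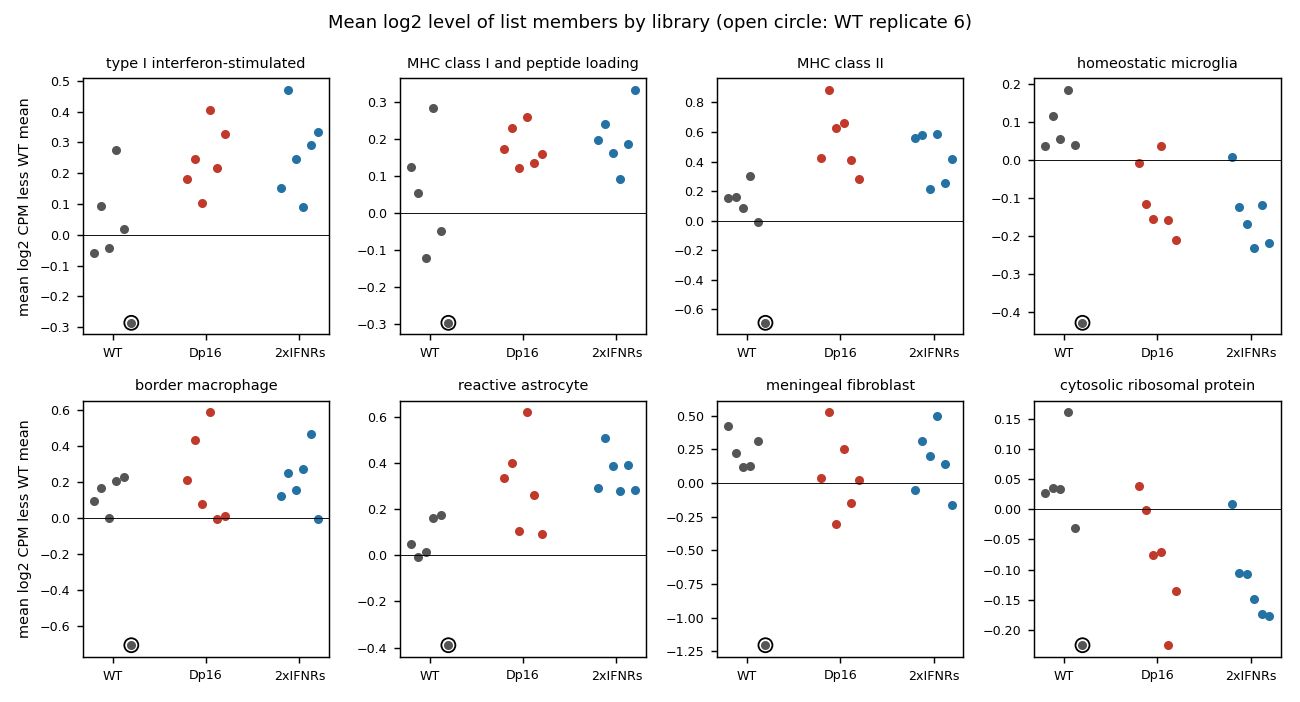
Mean over list members of log2 CPM less the WT mean, 1 point per library, for 8 gene lists (2xIFNRs stands for Dp16_2xIFNRs), with WT replicate 6 circled. That library is the lowest of the WT libraries in all 8 panels, and the MHC class II points of the duplication libraries lie between 0.21 and 0.88 against -0.69 to 0.3 in WT.

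Homeostatic microglial genes lay mostly below WT. Of 20 homeostatic microglia markers 17 were below WT and none was called; the list median was -0.13 on the log2 scale. Their summed level was 540 to 834 CPM in WT, the lowest in replicate 6, and 630 to 754 CPM in the duplication libraries. Without WT replicate 6, 1 of 20 was above WT, 5 were called lower and the median was -0.21. Sall1, a transcription factor gene of microglia, had a fold of 0.83 (adjusted p = 0.0644), and Gpr34, a lysophospholipid receptor gene, one of 0.81 (adjusted p = 0.125). With the 3 doubted libraries left out, both were called lower (adjusted p = 0.0074 and 0.00262).

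Some genes of other macrophages and activated myeloid cells rose. Lyz2, the lysozyme gene of myeloid cells, ran from 4.7 to 7.99 CPM in WT (median 7.27) and from 9.49 to 11.9 CPM in the duplication libraries (median 10.8). No library overlapped, and the rise was 1.52-fold (adjusted p = 0.000266). Bst1, a cell-surface enzyme gene, rose 2.53-fold from 0.135 ± 0.06 to 0.345 ± 0.074 CPM (adjusted p = 0.00383). Siglec1, a receptor gene of border macrophages, had a fold of 2.29 (adjusted p = 0.0236), but not on leaving out WT replicate 1 or 2 (adjusted p = 0.0503 and 0.077). With the 3 doubted libraries left out, Bst1 (adjusted p = 0.0528) and Siglec1 (0.0813) were not called. Of 14 border macrophage markers 10 were above WT, and 7 without WT replicate 6, where the median was 0.01 in place of 0.1.

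Of 16 complement genes 12 were above WT and 2 were called higher. The number above WT was 10 without WT replicate 6, with 2 called higher and 1 lower. Without the 3 doubted libraries 10 were above WT and none was called. C4b had 22 ± 5.4 CPM in WT and 32.9 ± 6.1 CPM in the duplication libraries (fold 1.5, adjusted p = 0.018), and C3, the central component, 0.456 ± 0.2 and 1.02 ± 0.46 CPM (fold 2.26, adjusted p = 0.0185). Each call ended on leaving out 1 WT library, replicate 1 for C4b (adjusted p = 0.0523) and replicate 2 for C3 (0.0656). C4b lies in the histocompatibility region of chromosome 17, between H2-K1 (chr17:33996017-34000347) and H2-D1 (chr17:35262730-35267499). Ager, an inflammatory receptor gene of the same region, had a fold of 2.07 (adjusted p = 0.0494). Its call ended in 14 of 18 leave-one-out fits (up to 0.146, without WT replicate 2). Markers of T cells, B cells and neutrophils had 8 of 10 members above WT and none called.

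Genes of meiosis and the germline held 3 called members among 16 tested (18.8%), in both directions, against 1.08% of genes outside the segment. The list was chosen with earlier results of these data known, so the higher share is not a test of the list. Sycp3, a component of the synaptonemal complex at chr10:88459569-88473236, had 3 to 9 counts in each WT library and 12 to 51 in each duplication library. In CPM the ranges were 0.0619 to 0.175 and 0.242 to 0.826, without overlap, and the rise was 4.16-fold (adjusted p = 0.000312). Rnf17, a tudor-domain gene of male germ cells, rose 2.2-fold from 0.587 ± 0.22 to 1.3 ± 0.24 CPM (adjusted p = 0.00122). Rec8, the meiotic cohesin subunit, fell from 2.79 ± 0.57 to 1.35 ± 0.47 CPM (fold 0.483, adjusted p = 0.00169). All 3 calls held in every leave-one-out fit.

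The Sycp3 promoter is shown because it holds the E-box CACGTG, a palindrome, which stood in 7.15% of all promoter windows and in 6 of 11 germline genes with a window (54.5%), against 10.9% of tested genes with one. The 200 bases before its RefSeq start, chr10:88459387-88459586 on the plus strand, hold 2 copies, in capitals.
Sycp3: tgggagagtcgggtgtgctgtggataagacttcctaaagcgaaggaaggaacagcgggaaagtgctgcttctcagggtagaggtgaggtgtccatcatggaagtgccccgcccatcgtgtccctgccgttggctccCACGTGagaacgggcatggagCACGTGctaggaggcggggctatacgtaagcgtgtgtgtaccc
The copies begin 64 and 43 bases before the start. Outside the segment, 5 of 83 genes called higher (6.02%) and 9 of 64 called lower (14.1%) held an E-box. Abca8a and Cbs were among these. The germline genes with an E-box were Ddx4, Stag3, Syce2, Sycp3, Tdrd1 and Tdrd9, of which Sycp3 was the 1 called.

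Neuronal lists moved little. Of 24 GABAergic neuron genes 17 were above WT (median 0.05), and 3 were called higher. Cort, the cortistatin gene of a class of inhibitory neurons, ran from 5 to 8.34 CPM in WT (median 6.42) and from 8.77 to 12.9 CPM in the duplication libraries (median 11.1). It rose 1.66-fold without overlap (adjusted p = 0.000153), by 1.73 in Dp16 and 1.6 in Dp16_2xIFNRs. Crh, the corticotropin-releasing hormone gene, had a fold of 1.33 (adjusted p = 0.0286), and Dlx6os1, a long non-coding RNA gene of interneuron development, one of 1.24 (adjusted p = 0.0187). The call of Crh ended without WT replicate 3, WT replicate 4, Dp16 replicate 5 or Dp16_2xIFNRs replicate 2 (adjusted p = 0.0723, 0.089, 0.0541 and 0.0513), and that of Dlx6os1 without WT replicate 1, 2 or 4 (0.0584, 0.0606 and 0.0575).

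Voltage-gated potassium channel genes were above WT in 7 of 25 cases and glutamate receptor genes in 7 of 26, with medians of -0.07 and -0.03. Of all genes outside the segment 49.3% were above WT, and of those at 50 CPM or more 40.3%. Without WT replicate 6 the median of the potassium channel genes was -0.04. Kcnab3, an auxiliary potassium channel subunit, fell from 77.6 ± 13 to 59.6 ± 4.7 CPM (fold 0.769, adjusted p = 0.00702), although it was not called with the 3 doubted libraries left out (0.0815). Grin2c, an NMDA receptor subunit, had a fold of 0.818 (adjusted p = 0.0215), not called without WT replicate 1, 4 or 5 (0.0519, 0.0736 and 0.0688). Layer markers of excitatory neurons had 6 of 21 members above WT and none called. Vamp1, a synaptic vesicle fusion protein gene, rose 1.19-fold from 149 ± 14 to 177 ± 8.5 CPM (adjusted p = 0.00363). Among 18 myelin genes 16 were above WT (median 0.06) and Mal, a lipid raft protein of myelin, rose 1.39-fold from 199 ± 17 to 278 ± 38 CPM (adjusted p = 0.00383). Without WT replicate 6, 13 of the myelin genes were above WT (median 0.04), and without the 3 doubted libraries all 18 (0.08).

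Cytosolic ribosomal protein genes were all below WT, 39 of 39, by small amounts (median log2 fold change -0.10, range -0.18 to -0.01), and none was called. Rps19, for example, had 94 ± 11 CPM in WT and 82.8 ± 6.8 CPM in the duplication libraries (adjusted p = 0.199). The summed levels overlapped, at 6090 to 7980 CPM in WT and 6110 to 7340 CPM in the duplication libraries. Without WT replicate 6, which had the lowest mean of the WT libraries, all 39 were again below WT, 3 were called lower and the median was -0.14. Respiratory chain genes, by comparison, had 11 of 28 above WT and a median of -0.01.

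**Figure D5:**
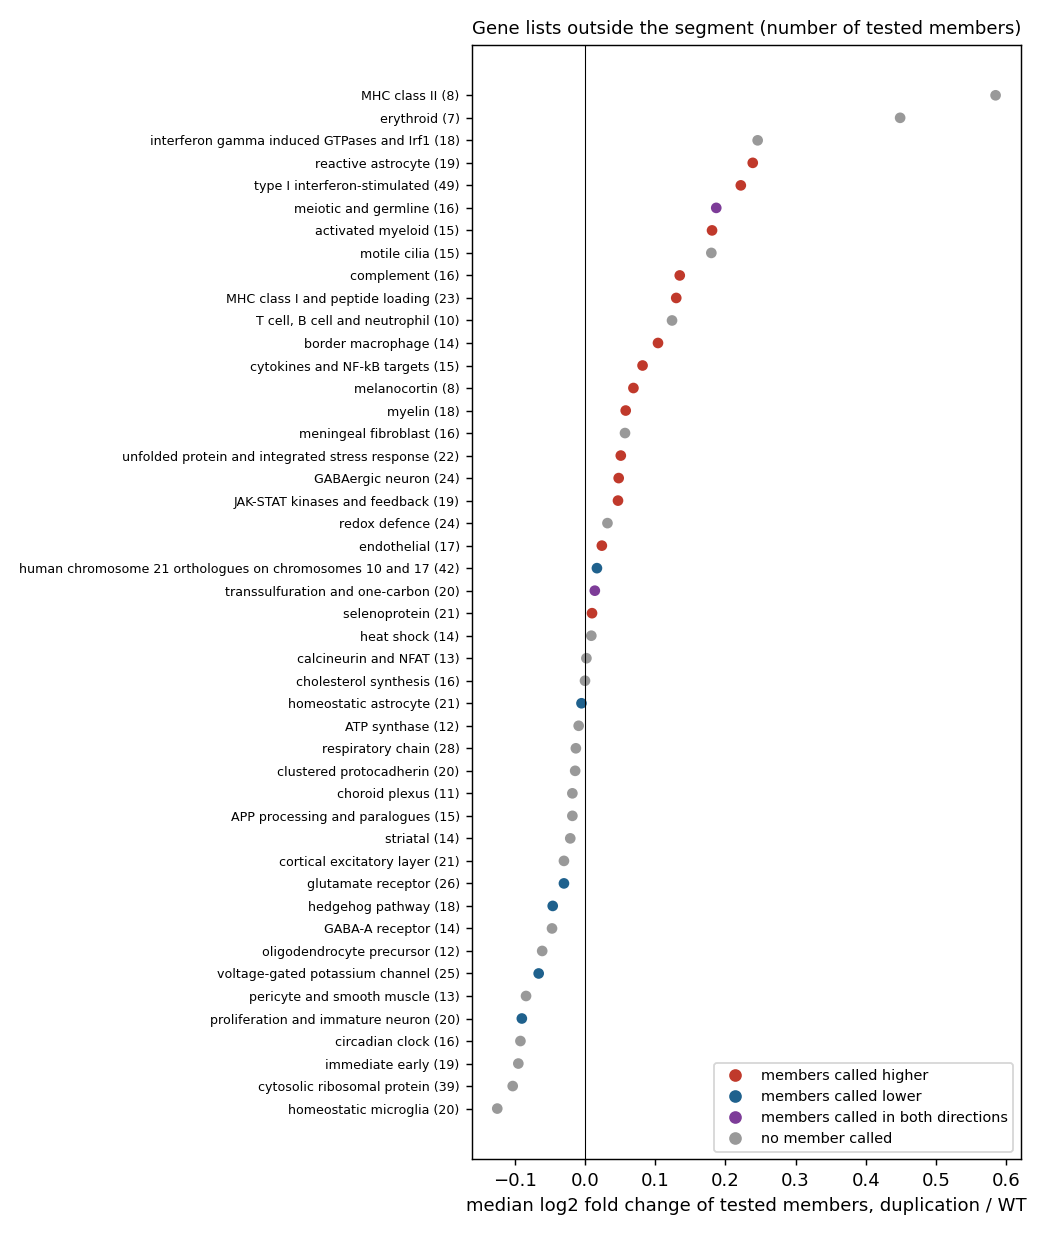
Median log2 fold change of the tested members of each gene list outside the segment (number tested in brackets), coloured by whether members were called higher, lower, both or neither. MHC class II stands highest at 0.58 and homeostatic microglia lowest at -0.13, neither with a called member.

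Single genes rose or fell in other lists. Gja5, the connexin 40 gene of arterial endothelium, rose 1.93-fold from 0.487 ± 0.12 to 0.939 ± 0.084 CPM (adjusted p = 0.000724), 1 of 17 endothelial genes called. Atf5, a transcription factor gene of the mitochondrial stress response, rose 1.24-fold (adjusted p = 0.0125), 1 of 22 stress response genes called, but not with the 3 doubted libraries left out (0.0808). All 15 motile cilia genes tested were above WT (median 0.18) and none was called. Sox4, a transcription factor gene of immature neurons, had a fold of 0.817 (adjusted p = 0.0163), not called without WT replicate 2 or 3 (0.0614 and 0.0538). Mthfd2, a mitochondrial folate enzyme gene, had a fold of 1.37 (adjusted p = 0.0456), and its call ended in 13 of 18 leave-one-out fits (up to 0.12, without WT replicate 5).

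Other genes with large changes belonged to no list. Exoc3l4, related to the exocyst, rose 2.02-fold from 1.22 ± 0.28 to 2.47 ± 0.41 CPM (adjusted p = 0.000414). H1f4, a linker histone gene, rose 2.29-fold from 1.53 ± 0.41 to 3.55 ± 1.2 CPM (adjusted p = 0.0125), and was not called with the 3 doubted libraries left out (0.0882). Cd300lg, an endothelial receptor gene, had a fold of 3.92 (adjusted p = 0.041), with 13 of 18 leave-one-out fits not calling it (up to 0.108, without WT replicate 1). Tcap, a sarcomere protein gene, fell from 4.24 ± 0.73 to 2.8 ± 0.42 CPM (fold 0.664, adjusted p = 0.00703). Cyp11a1, the first enzyme of steroid synthesis, had a fold of 0.638 (adjusted p = 0.0127), not called without WT replicate 1 or 2 (0.051 and 0.0628). Among the lower genes Npcd had a fold of 0.449, Fam181a 0.565, Scx 0.658, Mir7666 0.679 and Sall3 0.709. Each of these 5 calls ended in 4 or more leave-one-out fits, with adjusted p up to 0.0934 (without WT replicate 4), 0.0754 (2), 0.11 (4), 0.0938 (1) and 0.104 (4).

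Pooling brought out small changes that neither genotype showed at the threshold by itself. Outside the segment Dp16 alone had 51 genes called higher and 21 lower, and Dp16_2xIFNRs alone 75 and 58, both against the same 6 WT libraries. Of the 12 genes with the smallest p among those called only when pooled, Shc4, Kcnip1 and Naxd were among the higher ones, with folds of 1.13 to 1.24. Gpc5, Rftn1, Kdm3b, Ptch1, Slc11a1, Fmnl3, Slitrk2 and Fam181a were lower, with folds of 0.565 to 0.887. Gpc5, a glypican gene of astrocytes, had 50.9 ± 7.4 CPM in WT and 40.6 ± 3.2 CPM in the duplication libraries (fold 0.801, adjusted p = 0.0152), 0.799 in Dp16 and 0.802 in Dp16_2xIFNRs. All 12 of these calls ended on leaving out at least 1 WT library; for Gpc5 it was WT replicate 4 (0.0549) or 5 (0.0518) and for Rftn1, a raft protein gene, WT replicate 5 (0.0645).

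The pooled effect was not found to differ between the sexes for any gene: 0 of 18717 were called in the interaction (0.0%), with a smallest adjusted p of 0.889 by edgeR and 1006 genes at an unadjusted p below 0.05. DESeq2 and limma-voom called 0 as well. The smallest p-values belonged to Tgtp1, an interferon-induced GTPase gene (log2 fold change -1.06 in females and 0.85 in males), Gpr22, an orphan receptor gene (0.14 and -0.27), and Zfp467 (-0.37 and 0.04). Of the 201 called genes outside the segment, 20 had an unadjusted interaction p below 0.05.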

How the data were processed

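Cortex RNA of 18 mouse samples was grouped by the genotype label into 6 WT, 6 Dp16 and 6 Dp16_2xIFNRs libraries. Per the labels' protocols, libraries of poly-A RNA kept strand (Tecan/Nugen kit) and were read paired-end on a NovaSeq. HISAT2 2.1.0 and HTSeq 0.6.1, with the build GRCm38, stand in the submitters' processing notes. How HTSeq treated strand and multiply matching reads is not given in the sources used here, which leaves overlapping genes, antisense genes and near-identical copies uncertain. Tests used the raw gene counts that the authors deposited. RPKM values were also deposited by the authors. For 31735 of 31735 genes checked, RPKM equalled count over library total and gene length (relative tolerance 1e-06).

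Positions came from GENCODE M21 on GRCm38, in which 55144 of 55385 genes were found by identifier. Counts were filtered with filterByExpr (minimum count 10), scaled by TMM and fitted in edgeR 4.0.16 (R 4.3.3) with robust quasi-likelihood dispersions, genotype and sex as terms. The contrast was the mean of both duplication genotypes less WT, with 14 residual degrees of freedom and a common biological coefficient of variation of 12.2%. Adjusted p-values are from this fit unless another tool is named, values after ± are SDs over 6 WT or 12 duplication libraries, and log2 CPM used a prior count of 2. On counts simulated for this comparison over 18717 genes, the fit called 66% of 100 genes changed 1.5-fold and 86% of 100 changed by a factor of 2.

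The text names the 4 receptor genes, and in the segment the 10 of smallest p and the 8 of lowest fold at 5 CPM or more. Outside it, among genes with proper symbols, the 10 of smallest p, the 12 called with largest and the 12 with lowest log2 fold change, the 12 of smallest p called only when pooled and the 6 called of highest CPM are named, with 3 for the sex interaction and up to 4 called members per list (2 members as values where none was called). The members, the lists and these rules were chosen with earlier results of these data known, and the promoter motifs after seeing which genes were called. Promoters came from RefSeq, with a window for 83 of 113 genes called higher and 64 of 88 called lower.

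Alternatives covered RLE factors, TMM from outside genes, DESeq2 1.42.0, limma-voom (3.58.1) with and without sample weights, RPKM with limma-trend and other filters. Further ones were a single duplication factor, the sex term removed, an age term added, blocks and each library left out. Counting intervals cover counting error only. Results for 1 gene among those the rule names are not reported here.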

Additional observations from a re-analysis of the deposited data

Results flagged for a closer look

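The duplication genotypes differed in the 4 receptor genes, by a test of the difference itself (edgeR, Dp16_2xIFNRs minus Dp16, log2): Ifngr2 by -0.56, Ifnar1 by -0.50, Ifnar2 by -0.58 and Il10rb by -0.54. The other results are single libraries whose CPM stood far from the other 5 of their genotype. There were 30 among 438 groups of values checked (6.85%), and chance flags about 1 in 20. The largest number, 7, fell in WT replicate 6, which was low in Lyz2 (4.7), Slc11a1 (2.19), H2-Ab1 (0.373), Aldh1a2 (2.69) and Pigp (8.12) and high in Prdm15 (20.1) and Bdnf (37.9).

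The choroid plexus gene Ttr was high in WT replicate 5 (178) and Dp16 replicate 3 (351), and F5 in the latter (5.49). WT replicate 5 was also high in Lcn2 (0.433) and Rftn1 (9.15). WT replicate 3 was high in Wrb (48.1) and Gm9843 (8.64), WT replicate 4 in Gbp3 (8.25) and Tef (366), and WT replicate 2 in Gabrd (79.6). Dp16 replicate 4 was low in Ifngr2 (56.6) and Cct8 (174) and high in the erythroid gene Slc4a1 (1.18), and Dp16 replicate 2 was high in Tcap (3.63). Among Dp16_2xIFNRs libraries, replicate 1 stood apart in Hunk (50), Mfge8 (185) and Rps19 (92.1), replicate 3 in Tef (256), replicate 4 in Scx (1.75), replicate 5 in Mir7666 (0.693) and Gabrd (71.4), and replicate 6 in Npcd (0.518) and Rcan2 (291).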

How the results depend on the processing

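The segment genes called higher ran from 65 to 75 over all alternatives, and 0 were called lower in each planned one. The median log2 fold change of the segment ran from 0.54 to 0.57 when single libraries were left out. None of the 201 genes called outside the segment changed direction under the other scalings, filters, tools, terms and blocks or with 1 library left out. Outside the segment the counts moved more. DESeq2 called 261 genes higher and 181 lower, among them all 201 reported; limma-voom with sample weights called 137 lower. With WT replicates 5 and 6 and Dp16 replicate 3 left out, a choice made after seeing the data, 71 were called higher and 98 lower. Beside the lost calls given with the results, Ager, B2m, Bst2, C3, C4b, Cd300lg, Fgfr3, Grin2c, Kcnip1, Mir7666, Mthfd2, Naxd, Npcd, Rftn1, Sall3, Scx and Serpina3n were then not called (adjusted p from 0.0625 to 0.136). The causes were not tested. On leaving out 1 library the higher calls ran from 72 to 139 and the lower calls from 37 to 142, with fewer samples in each fit. Calls in the difference between genotypes ran from 3 to 4, and in the sex interaction stayed at 0.

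With the replicate block, the number in the labels entered as a term, 192 outside genes were called higher and 148 lower, of which 190 were among the 201 reported. Same-numbered samples did not deviate together in every case (18 pairs, median r 0.11, from -0.15 to 0.32, 11 over 0.1). Pairs sharing neither this number nor the second one below had a lower median r of -0.03 (89 pairs, from -0.36 to 0.37, 22 over 0.1). Of 18 samples 6 correlated best with one of their own number. The reported fit does not include this number, and whether it marks shared handling was not tested. A second number, in the sample descriptions, recurs across genotypes in 7 pairs of samples, of which 5 had a correlation over 0.1 (median r 0.17, from -0.1 to 0.32), and what it marks is not given in the sources used here. Entered as a correlated block in limma-voom (consensus correlation 0.25), it gave 144 outside genes called higher and 100 lower, 185 of them among the 201 reported. C3 (adjusted p = 0.121), Siglec1 (0.0614), Fgfr3 (0.0638), Bst2 (0.053) and Brd2 (0.0545) were not called there, and H2-Ab1 and Cd74 were (0.0297 and 0.0329). Without the block limma-voom did not call C3 (0.102), Siglec1 (0.0679) or Fgfr3 (0.0522) either.

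With 6 WT libraries, outside calls near the threshold often rest on single controls, and genes under 1 CPM rest on small counts per library.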
